A study of Homo sapiens with 10 samples.

Results

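The 38 genes described here copy the genome or supply its building blocks, and they were taken by name from an RNA-seq count table of 57736 Ensembl gene IDs. The list was drawn up from the genes' known roles, with earlier results of these data known. They comprise 27 genes of DNA replication, deoxynucleotide synthesis and entry into S phase, and 11 genes of purine and pyrimidine synthesis. All 38 were found in the table, and all 38 were among the 17978 genes that passed the filter on low counts. The libraries came from 3 established human lung cancer cell lines, each with its own p53 mutation. These were V157F in NCI-H2087, R158L in the line NCI-H441 and, in NCI-H2110, R158P. In every line one group received control siRNA and the other siRNA directed at p53. The first 2 lines had 2 libraries in each group, and NCI-H2110 had 1 in each, which its labels number replicate 2. The sample titles speak of a knockout, while the protocol describes siRNA, and the treatment is called p53 siRNA here. Each mutation is represented by 1 line, so line and mutation cannot be told apart. Nothing in the labels says that replicates came from separate cultures, and p-values therefore reflect the spread among these libraries, which may be technical.

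Before S phase the loading factors CDC6 and CDT1 place the ring-shaped MCM2-7 helicase on replication origins, and the GINS complex later helps to turn it on. The clamp PCNA is then opened and loaded by replication factor C, and it holds the polymerases on the template while FEN1 and LIG1 finish the lagging strand. Ribonucleotide reductase, thymidylate synthase and thymidine kinase supply deoxynucleotides, whereas the longer purine and pyrimidine routes also feed RNA synthesis and are used outside S phase. Many of the replication genes are transcribed under E2F factors at the G1/S boundary, where cyclin E acts.

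The promoters are shown first because the replication genes and the purine and pyrimidine genes are described separately in NCI-H2087. RefSeq promoter sequences (build GRCh38.p14, 250 bases before to 50 after the gene start) were matched for 34 of the 38 genes; MCM4, MCM5, IMPDH2 and CCNE2 had no entry. Each was searched on both strands for the E2F core strings TTTGGCGC, TTTGCCGC, TTTCGCGC and TTTCCCGC, which can overlap one another on opposite strands. At least 1 of these strings was present in 17 of the 34 promoters (50%), against 3.99% of all 27305 genes with a promoter in the table. The strings were in 16 of 24 promoters on the replication side and in 1 of 10 promoters of purine and pyrimidine synthesis. All 4 matched MCM promoters and all 4 promoters of origin licensing and GINS held one. The shorter box CCAAT, read by NF-Y, was present for 16 of the 34 genes (47.1%) and for 39.7% of all genes with a promoter. All these counts are of genes. Some genes, such as GART and MCM7, have several annotated starts, and a gene counted if any of its promoters matched. A match describes letters in this window only. The windows of 30 bases below are written along the gene's own strand, with 1 E2F string per gene in capitals. They come from genes whose levels differed between lines or replicates, and GART is the 1 purine gene with a match.
MCM7: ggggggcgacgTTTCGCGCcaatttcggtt
MCM6: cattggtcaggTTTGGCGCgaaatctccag
CDC6: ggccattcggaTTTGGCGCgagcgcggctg
GINS1: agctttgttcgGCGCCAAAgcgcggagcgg
GINS2: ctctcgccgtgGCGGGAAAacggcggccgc
E2F1: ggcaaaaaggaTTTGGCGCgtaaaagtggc
PCNA: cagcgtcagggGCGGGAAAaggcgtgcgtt
TYMS: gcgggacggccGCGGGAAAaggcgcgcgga
GART: agcatTTTGGCGCtcccccccggcgctcct

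The windows lie at chr7:100101388-100101417 (MCM7, minus strand), chr2:135876515-135876544 (MCM6, minus strand), chr17:40287875-40287904 (CDC6, plus strand) and chr20:25407667-25407696 (GINS1, plus strand). The others lie at chr16:85688967-85688996 (GINS2, minus strand), chr20:33686387-33686416 (E2F1, minus strand), chr20:5126663-5126692 (PCNA, minus strand), chr18:657603-657632 (TYMS, plus strand) and chr21:33542338-33542367 (GART, minus strand). The capitalised E2F strings of MCM7, E2F1, GINS2, TYMS and PCNA had their first base at positions from -59 to -9 relative to the annotated start. Those of CDC6 and GINS1 were at 8 and 6, that of MCM6 at -90 and that of GART at -245. Further E2F strings, not in capitals, lay at -187 in MCM7, at -33 in E2F1 and at -86, -148 and -152 in MCM6.

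Library totals ranged from 18336672 to 25810934 counts, and the 38 genes together took 0.276% to 0.453% of each library's counts. Levels are given in CPM, read counts scaled to library size with TMM factors. The 8 epithelial markers summed to 3131 CPM or more in every library, and 2 of 6 immune markers passed the filter on low counts. So did 3 of 8 fibroblast markers and 3 of the 4 endothelial markers found. Their sums reached 68.2 CPM (fibroblast) and 65.3 CPM (endothelial), both in NCI-H441 libraries. NCI-H2087 with p53 siRNA, replicate 2, held the lowest level of the 10 libraries for 16 of the 38 genes, all on the replication side. The matching share over all genes was not counted. The count also holds differences between lines, since 14 of the 38 genes were called higher in NCI-H441 than in NCI-H2087. Results that rest on this library are given with and without it.

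Per kilobase of the principal GENCODE 29 transcript, the most abundant of the 38 transcripts in NCI-H2087 were IMPDH2 (mean 152 CPM per kilobase over 4 libraries, range 137 to 172), ATIC (134, range 111 to 151), PCNA (120, range 64.3 to 167) and RRM2 (101, range 47.0 to 177). The ranges of PCNA and RRM2 overlapped each other and both purine enzymes, so the places of PCNA and RRM2 were not separated by the spread over libraries. IMPDH2 lay above ATIC within each of the 4 libraries. These places depend on the length used, which was the longest where several transcripts were equally ranked as principal. PAICS averaged 305 CPM in the NCI-H2087 controls against 230 for IMPDH2. It was divided by 6480 bases, against 1643 for IMPDH2, and took rank 8. In NCI-H441 RRM2, the regulated subunit of ribonucleotide reductase, ranked first by mean at 178 CPM per kilobase (range 129 to 202). That range overlapped those of ATIC (107 to 144) and TK1 (98.0 to 131). With p53 siRNA in replicate 2 of NCI-H441, TK1 read 131 and RRM2 129. In NCI-H2110 PCNA ranked first at 195 (180 and 210 in its 2 libraries). DHODH, the mitochondrial enzyme of pyrimidine synthesis, was last in all 3 lines, at 1.63, 1.94 and 1.80 CPM per kilobase.

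**Figure D1:**
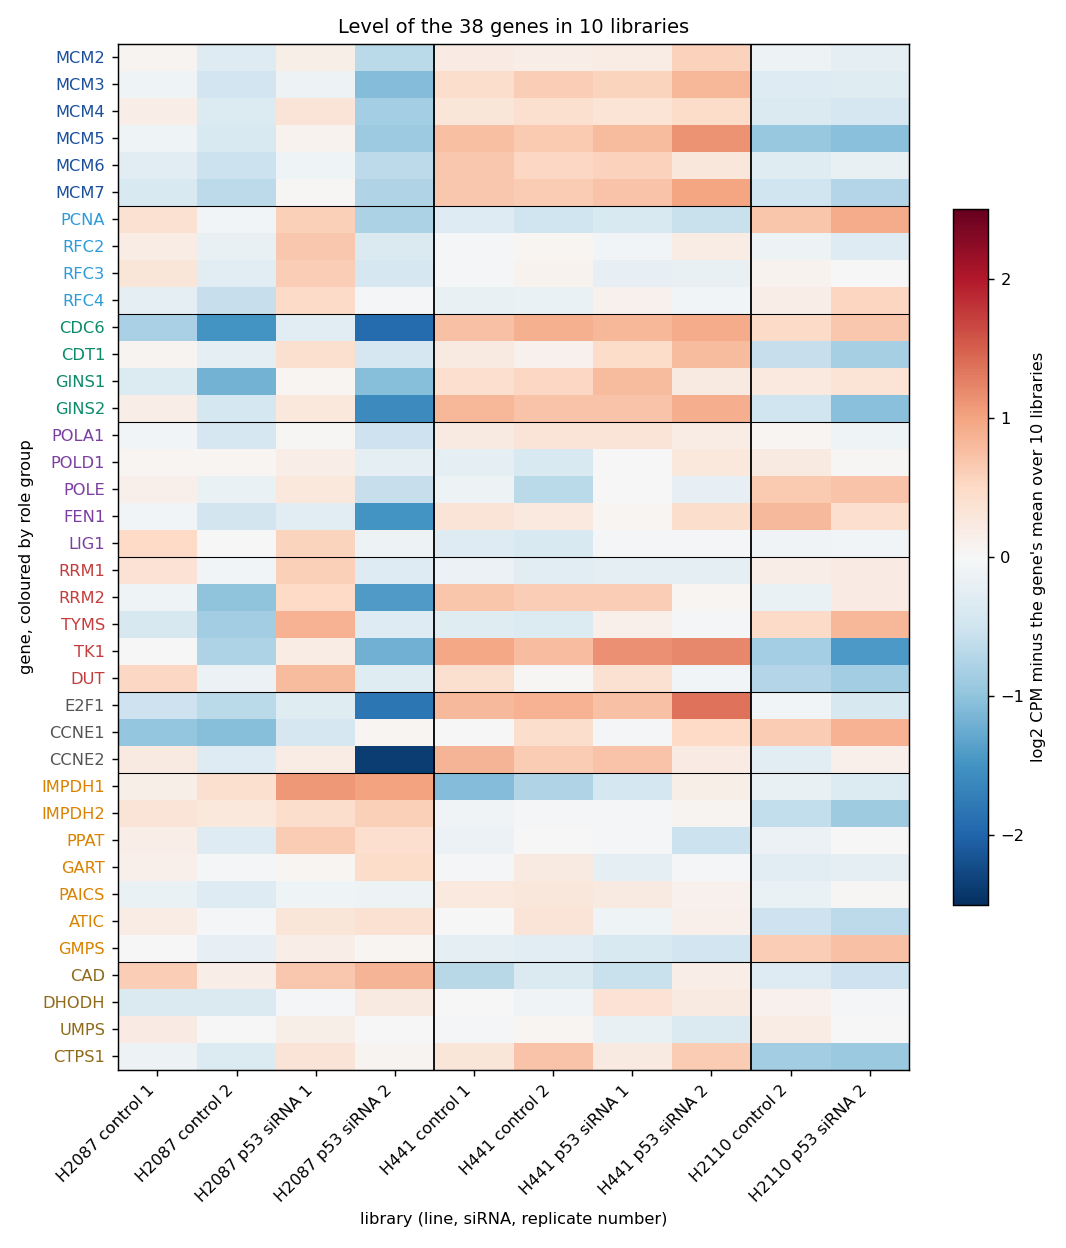
Rows are the 38 genes, coloured by role group, and columns the 10 libraries; the colour gives log2 CPM minus the gene's own mean over the 10 libraries. The fourth column, NCI-H2087 with p53 siRNA replicate 2, is low across the replication genes but not across the purine and pyrimidine genes at the bottom.

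p53 siRNA was compared with control siRNA within each line. In NCI-H2087 none of the 38 genes was called at an adjusted p below 0.05 by edgeR's quasi-likelihood test, where 8.68% of all tested genes were called. At an unadjusted p below 0.05 there were 5 of 38 (13.2%), against 25.3% of all tested genes. DESeq2 called 3 (TYMS, IMPDH1 and RFC4), where it called 7.28% of the 29328 genes given to it. The limma-voom fit called 0, where it called 8.97% of all genes. The median of the 38 log2 changes was 0.12 with 25 of 38 positive, and the median of all tested genes was -0.03. That lean depends on scaling: with plain library totals the median of all genes moved to -0.21, the median of the 38 was -0.05 and 17 of 38 were positive. In NCI-H441 the same test called 0 of 38, against 0.00556% of all genes. Among the 38, 1 gene had an unadjusted p below 0.05 (2.63%), against 4.43% of all genes. DESeq2 and limma-voom each called 0, where they called 0.0852% and 0.00556% of all genes.

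The smallest p in NCI-H2087 belonged to IMPDH1, an inosine monophosphate dehydrogenase, the committed step towards guanine nucleotides. In NCI-H2087 the control libraries read 37.4 and 44.6 CPM and the p53 siRNA libraries 70.9 and 67.3; in NCI-H441 they read 15.9 and 20.05, then 24.9 and 37.2. Both p53 siRNA libraries lay above both controls in each of these lines, while the single NCI-H2110 libraries read 29.5 and 26.7. The log2 change of IMPDH1 was 0.75 ± 0.23 (SE) in NCI-H2087 (edgeR adjusted p = 0.0693) and 0.79 ± 0.23 in NCI-H441 (adjusted p = 0.933). The table holds 10 IMPDH1 pseudogenes, whose summed counts were 1.71% of those of IMPDH1, and how reads were divided between these copies is not given in the sources used here.

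TYMS, thymidylate synthase, read 68.1 and 48.9 CPM in the NCI-H2087 controls, then 163 and 71.6 under p53 siRNA. Both p53 siRNA libraries exceeded both controls, but the second by little over the first control, and the log2 change was 1.00 ± 0.33 (adjusted p = 0.0888). RFC4, a subunit of the clamp loader, read 51.6 and 40.2 against 84.2 and 58.9 CPM, with no overlap and a log2 change of 0.64 ± 0.21 (adjusted p = 0.0909). CCNE1, cyclin E1, was low throughout, at 4.8 and 4.5 against 7.0 and 9.6 CPM in NCI-H2087; its log2 change was 0.84 ± 0.28 (adjusted p = 0.0964). PPAT, which starts purine synthesis, read 81.2 and 57.5 against 112 and 96.2 CPM, again without overlap, and its log2 change was 0.59 ± 0.22 (adjusted p = 0.133). In TYMS, 39.1% of exon bases are shared with ENOSF1 on the opposite strand, and in CCNE2 37.0% with INTS8; whether the counting used strand is not given in the sources used here, so reads from such pairs cannot be told apart. ENOSF1 had a log2 change of -0.64 ± 0.22 in NCI-H2087, in the direction opposite to TYMS.

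By role, all 7 purine synthesis genes had positive log2 changes in NCI-H2087 (median 0.23, range 0.13 to 0.75), and with library totals 6 of 7 did. In the pyrimidine group CTPS1 (0.43 ± 0.21), DHODH (0.46 ± 0.26) and CAD, the enzyme that opens the pathway (0.35 ± 0.26), were positive and UMPS was at -0.03 ± 0.18. Of the MCM genes 2 of 6 were positive, with MCM7 at 0.20 ± 0.24 and MCM3 at -0.25 ± 0.28. RFC2, another clamp loader subunit, was at 0.25 ± 0.29, GINS1 at 0.30 ± 0.37 and POLE, the leading-strand polymerase, at -0.08 ± 0.29. All 5 deoxynucleotide genes were above 0 under TMM scaling but 2 of 5 with library totals, and RRM2 stood at 0.33 ± 0.50. FEN1, the flap nuclease, was at -0.49 ± 0.34, CCNE2, cyclin E2, at -0.57 ± 0.59 and GINS2 at -0.29 ± 0.46. RRM2, CCNE2 and GINS2 had wide errors and replicates that lay far apart.

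Behind these changes MCM7 read 109 and 89.4 CPM in the NCI-H2087 controls and 144 and 84.2 with p53 siRNA. MCM3 read 80.7 and 62.3, then 79.3 and 41.2. RFC2 read 83.8 and 64.5, then 118 and 57.8. In these 3 genes the p53 siRNA libraries lay on either side of a control, with replicate 2 the lowest of the 4 libraries. GINS1 read 34.2 and 18.9, then 44.5 and 20.6, POLE 39.1 and 31.8, then 42.8 and 24.04, and FEN1 24.8 and 19.0, then 21.8 and 9.3. The groups overlapped in these genes as well. CTPS1, which makes CTP, read 60.2 and 51.8, then 82.1 and 69.3, and DHODH read 3.35 and 3.32, then 4.15 and 5.03, both without overlap. In NCI-H441 CTPS1 read 81.8 and 109, then 77.5 and 102, with overlap, whereas DHODH read 4.25 and 4.03, then 5.49 and 5.03, without it.

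**Figure D2:**
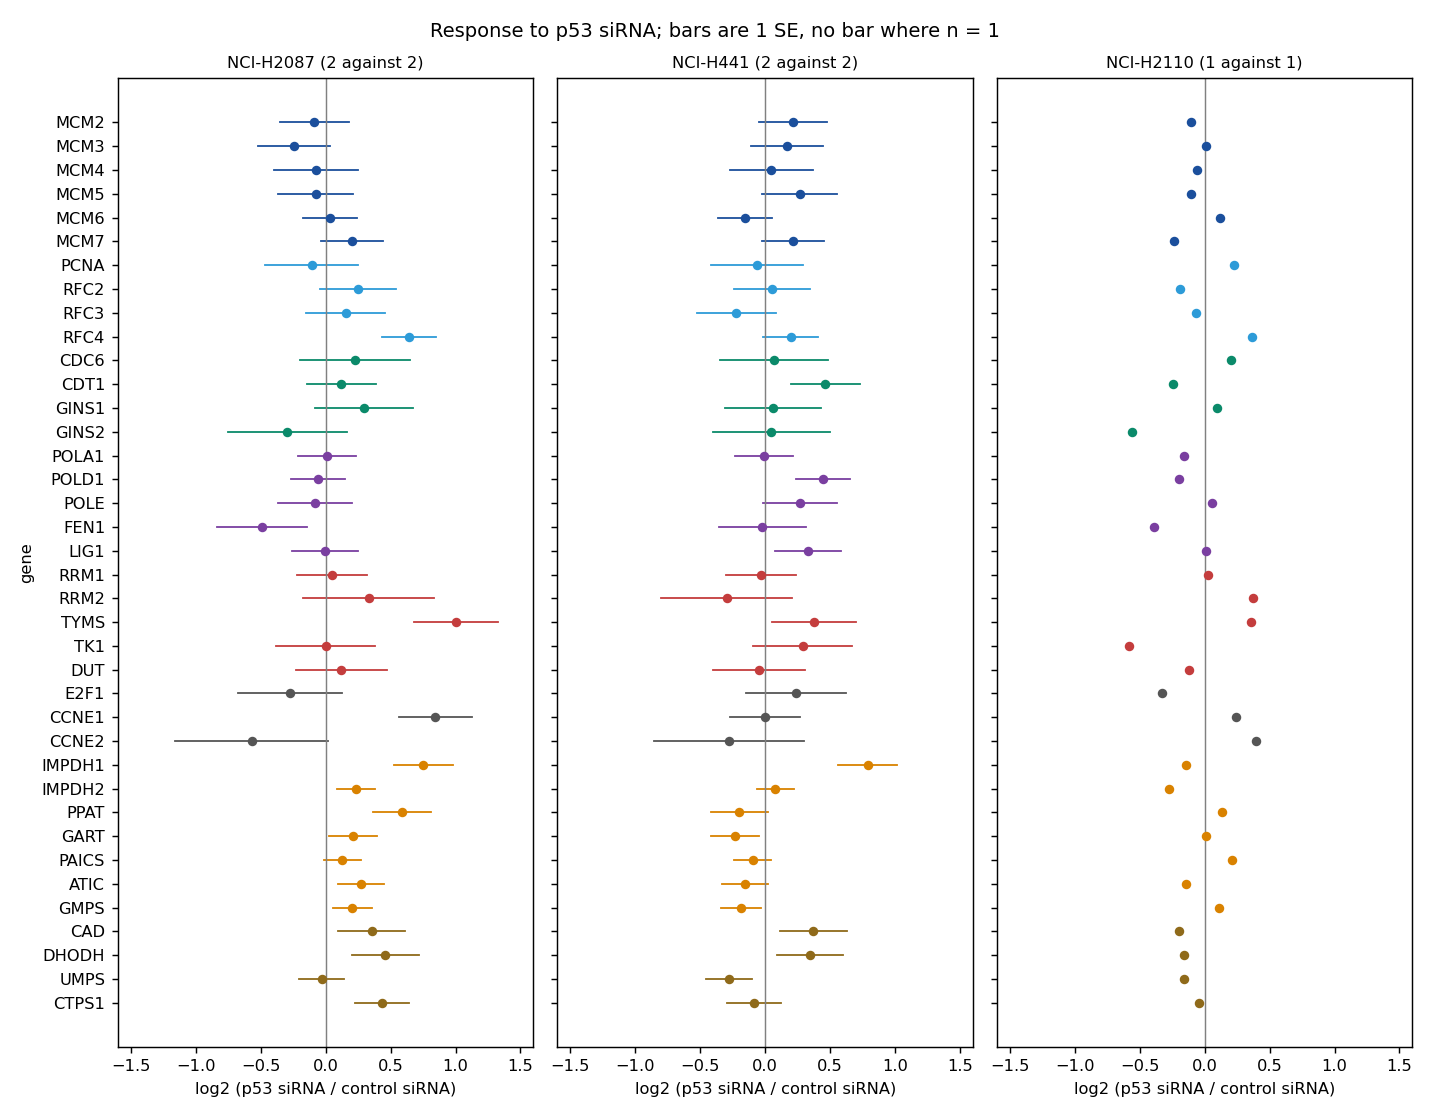
Points give the log2 ratio of p53 siRNA to control siRNA for each of the 38 genes in the 3 lines, with bars of 1 standard error for NCI-H2087 and NCI-H441 (2 libraries against 2) and none for NCI-H2110 (1 against 1). IMPDH1 is the 1 gene whose point lies near 0.8 in both of the first 2 panels, at 0.75 and 0.79.

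In NCI-H2087 the replicates of the replication genes lay far apart. RRM2 read 399 and 213 CPM in control replicates 1 and 2, and 608 and 161 CPM in p53 siRNA replicates 1 and 2. GINS2, a subunit of GINS, read 68.9 and 45.3 with control and 72.9 and 20.2 with p53 siRNA. For CCNE2 the values were 28.3 and 19.2, then 27.3 and 4.7. In each of these 3 genes replicate 2 was the lower in both arms, and p53 siRNA replicate 2 was the lowest of the 4 libraries.

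Replicate 2 lay below replicate 1 for 27 of 27 replication-side genes with control siRNA (median log2 ratio -0.39) and for 26 of 27 with p53 siRNA (median -1.03), where CCNE1 was the exception. With p53 siRNA 15 of the 27 were at least 2-fold lower. The 11 purine and pyrimidine genes did not share that drop: 6 of 11 were lower in replicate 2 with p53 siRNA, their median was -0.02 and their range -0.24 to 0.41. Over all 38 genes 39.5% were at least 2-fold lower in p53 siRNA replicate 2, against 5.16% of all tested genes, whose median was 0. By role the medians were -1.48 for the 3 G1/S control genes, whose values ran from -2.52 to 0.45, -1.36 for licensing and GINS, -1.19 for deoxynucleotide synthesis, -1.03 for the clamp and its loader, -0.88 for the MCM genes and -0.68 for polymerases and lagging-strand genes. With control siRNA the purine and pyrimidine genes were also lower in 10 of 11 cases, with a smaller median of -0.19. These are ratios of 1 library to another and carry no test. Fewer cells in S phase and less of these RNAs per cell cannot be told apart in bulk libraries.

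Genes outside the 38 were also lower in replicate 2. Of 45 other replication genes, 44 were lower in replicate 2 with control siRNA and 42 with p53 siRNA (medians -0.38 and -0.68). All 20 mitosis markers were lower in replicate 2 in both arms (medians -0.67 and -0.87), whereas 38 other nucleotide synthesis genes were evenly divided with p53 siRNA, with 19 lower and 19 higher. In NCI-H441 the 38 genes were divided between replicates, with 19 of 38 lower in replicate 2 with control siRNA and 17 of 38 with p53 siRNA (medians -0.01 and 0.07). The mitosis markers were lower in replicate 2 there too, in 17 of 20 cases in each siRNA group (medians -0.14 and -0.38). The part of the mitosis markers in the replicate difference was not tested.

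**Figure D3:**
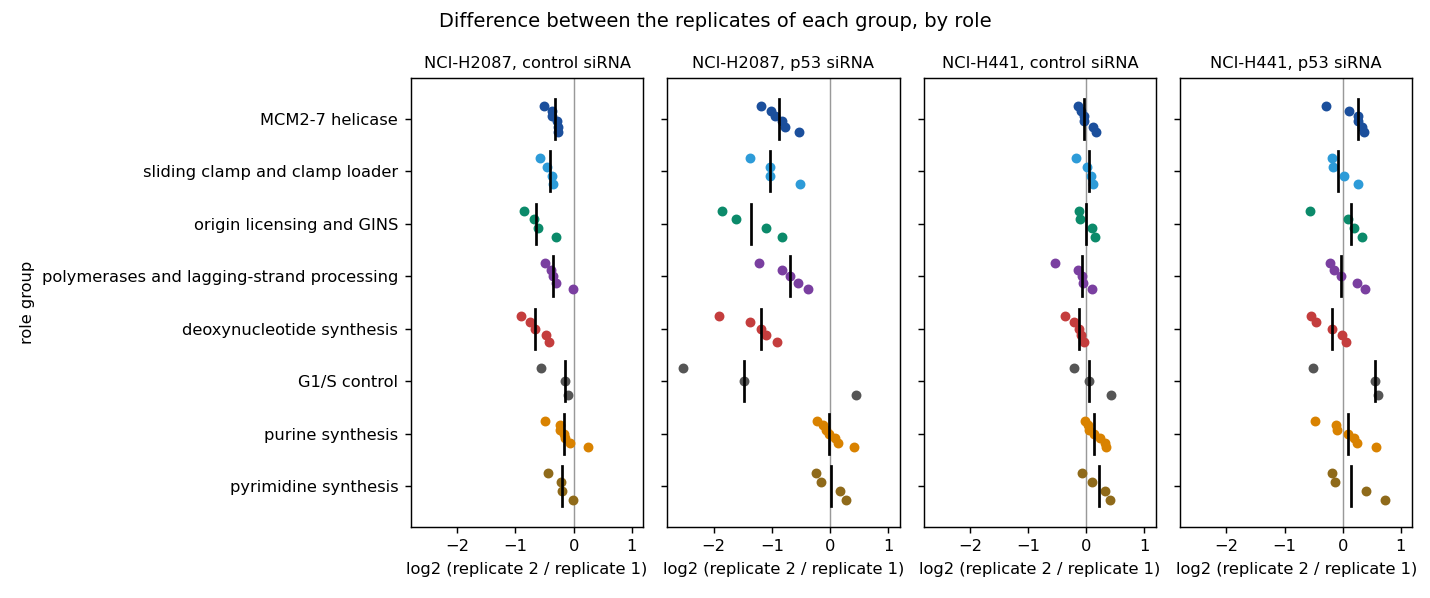
Each point is 1 gene and gives log2 of replicate 2 over replicate 1 within a siRNA group; vertical bars are role-group medians. Replication groups shift to the left in NCI-H2087, most with p53 siRNA (medians -0.68 to -1.36 for the 5 replication and deoxynucleotide groups), while the p53 siRNA medians of the purine and pyrimidine groups are -0.02 and 0.01. In NCI-H441 with p53 siRNA the role medians run from -0.18 to 0.55, the highest being the 3 G1/S control genes.

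Same-numbered libraries deviated together: over 9332 genes the deviations of control and p53 siRNA libraries correlated at 0.53 in NCI-H2087 and 0.60 in NCI-H441, so the response was also read within pairs. In the first NCI-H2087 pair 24 of 27 replication-side genes were higher with p53 siRNA (median 0.21), and in the second pair 4 of 27 were (median -0.26). No MCM gene and no polymerase or lagging-strand gene was higher in the second pair. Purine and pyrimidine genes were higher in 9 of 11 cases in the first pair and 10 of 11 in the second (medians 0.13 and 0.44). All 7 purine genes were higher in the second pair, between 0.19 and 0.74.

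With the replicate number as a block within line, edgeR called 8 of the 38 genes in NCI-H2087 (21.1%), where 25.4% of all genes were called. Of these, 6 were higher with p53 siRNA: TYMS (0.91 ± 0.16, adjusted p = 0.000879), IMPDH1 (0.76 ± 0.15, adjusted p = 0.00208), RFC4 (0.63 ± 0.14, adjusted p = 0.00416), CCNE1 (0.84 ± 0.20, adjusted p = 0.0068), PPAT (0.60 ± 0.16, adjusted p = 0.0119) and CTPS1 (0.43 ± 0.13, adjusted p = 0.0285). CCNE2 was lower (-0.95 ± 0.31, adjusted p = 0.0359), as was FEN1 (-0.59 ± 0.20, adjusted p = 0.0433). The 6 that rose did so in both pairs. CCNE2 and FEN1 rested mainly on the second pair, with log2 ratios of -0.05 and -2.02 for CCNE2 and -0.18 and -1.02 for FEN1. The pairs of TYMS also differed, at 1.26 and 0.55. Errors and p-values of this fit borrow spread across genes, so they do not measure how far a gene's own pairs lay apart. The share called was near that of all genes. In NCI-H441 the blocked fit called IMPDH1 alone (0.77 ± 0.16, adjusted p = 0.0481), where it called 0.417% of all genes.

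**Figure D4:**
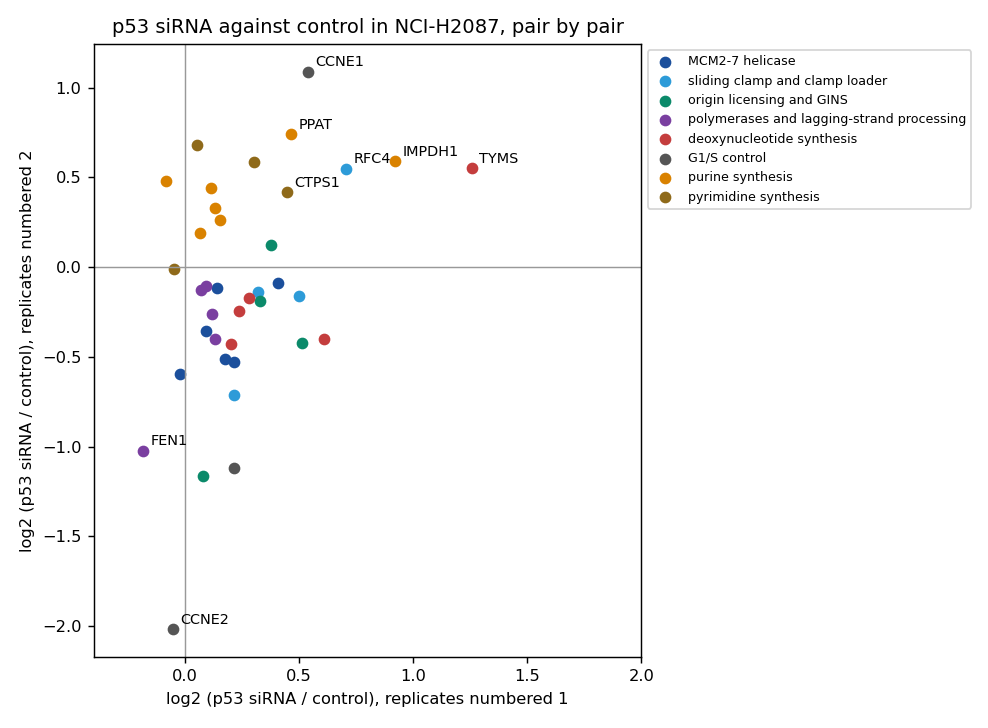
For each of the 38 genes the log2 ratio of p53 siRNA to control in NCI-H2087 is plotted for libraries numbered 1 (horizontal) and 2 (vertical), coloured by role; the 8 named genes are those called with the replicate block. Purine and pyrimidine genes lie above 0 on the vertical axis in 10 of 11 cases, while 23 of 27 replication-side genes lie below it.

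The direction of the replication-side response in NCI-H2087 changed with the library left out, among controls as well as p53 siRNA libraries. With all libraries 15 of 27 replication-side genes were positive (median 0.01). Without p53 siRNA replicate 2 there were 26 of 27 (median 0.42), and without p53 siRNA replicate 1 there were 3 of 27 (median -0.54). Without control replicate 1 there were 22 of 27 (median 0.27), and without control replicate 2 there were 5 of 27 (median -0.15). Of the 11 purine and pyrimidine genes 10 or 11 were positive in each of these fits. Each such fit leaves 1 library in an arm, which is assumed to vary like the other groups. Under that assumption TYMS alone was called without p53 siRNA replicate 2, at 1.48, where 3.58% of all genes were called. CCNE2, GINS2 and FEN1 were called lower without p53 siRNA replicate 1, at -2.34, -1.50 and -1.23, where 6.15% of all genes were called.

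The responses of NCI-H2087 and NCI-H441 were compared directly. edgeR called 0 of 38 differences, against 0.412% of all genes. Among the 38, 1 had an unadjusted p below 0.05 (2.63%), against 13.2% of all genes. DESeq2 and limma-voom called 0, where they called 1.6% and 0.172% of all genes. The smallest p was that of PPAT, at 0.79 ± 0.31 (adjusted p = 0.325), which read 65.0 and 71.6 CPM with control and 69.2 and 49.9 with p53 siRNA in NCI-H441. With the replicate block the PPAT difference was 0.82 ± 0.23 (adjusted p = 0.0355), the 1 call among the 38, where 8.92% of all genes were called. IMPDH1 differed by -0.04 ± 0.32 between the lines. The differences of the 38 were positive in 21 cases with all libraries, in 33 without NCI-H2087 p53 siRNA replicate 2 and in 12 without replicate 1 of that group. Without NCI-H2087 control replicate 1 there were 28, and without control replicate 2 there were 17.

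Over all 3 lines edgeR called 0 of 38 genes for the common response, against 0.395% of all genes. Among the 38, 3 had an unadjusted p below 0.05 (7.89%), against 14.2% of all genes. DESeq2 called 1 (IMPDH1) and limma-voom 0, where they called 2.02% and 0.523% of all genes. IMPDH1 had the smallest p at 0.59 ± 0.17 (adjusted p = 0.158), followed by TYMS at 0.62 ± 0.21 (adjusted p = 0.217) and RFC4 at 0.41 ± 0.14 (adjusted p = 0.224). MCM7 (0.12 ± 0.15), CDT1 (0.19 ± 0.18), DHODH (0.29 ± 0.18), CCNE1 (0.37 ± 0.20) and FEN1 (-0.28 ± 0.21) had the smallest p of their role groups. In TYMS the p53 siRNA library was above the control of the same number in 5 of 5 pairs, and in RFC4 likewise in 5 of 5. UMPS was below it in 5 of 5, with log2 ratios from -0.42 to -0.01. The matching share over all genes was not counted. The median of the 38 was 0.06 with 26 positive, and -0.04 with 14 positive under library totals. It was 0.16 with 34 positive without NCI-H2087 p53 siRNA replicate 2, and -0.07 with 14 positive without replicate 1 of that group. Leaving out NCI-H2087 control replicate 1 gave 0.11 with 32 positive, and leaving out control replicate 2 left 19 positive.

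NCI-H2110, with 1 library per siRNA, has no replicate check. None of the 38 genes passed a 2-fold ratio, where 0.904% of 12385 measured genes were past it upwards and 0.589% downwards. The log2 ratios of the 38 ran from -0.58 to 0.39 around a median of -0.06. TK1, thymidine kinase, read 51.6 CPM with control and 34.5 with p53 siRNA (log2 ratio -0.58), GINS2 read 43.5 and 29.4 (-0.56), FEN1 45.7 and 34.8 (-0.39) and CCNE2 20.2 and 26.5 (0.39). All 4 pyrimidine genes had negative ratios there, between -0.20 and -0.05.

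Genes of the same pathways outside the 38 were read from lists of 45 other replication genes, 38 other nucleotide synthesis genes and 30 G1/S regulators, of which 29 were tested. In NCI-H2087 4.98% of all genes were called higher and 3.69% lower. Of the 45 replication genes 2 rose and 0 fell: TOP1, topoisomerase I (0.98 ± 0.18, adjusted p = 0.0107), and POLD4, a small subunit of polymerase delta (1.19 ± 0.31, adjusted p = 0.0433). Of the 38 nucleotide genes 5 rose and 1 fell. DCTD, the deaminase that makes dUMP for TYMS, read 33.4 and 27.5 CPM with control and 72.1 and 74.9 with p53 siRNA (1.27 ± 0.17, adjusted p = 0.0029). SAMHD1, which breaks down deoxynucleotides, read 116 and 97.5 with control and 42.2 and 37.7 with p53 siRNA (-1.42 ± 0.17, adjusted p = 0.00237). Neither gene showed overlap between the groups. DGUOK (0.91 ± 0.19, adjusted p = 0.0201) and NME2 (0.78 ± 0.16, adjusted p = 0.0174), a nucleoside and a nucleotide kinase, were among the other rises. SAMHD1 was called whichever NCI-H2087 library was left out. The other calls were not all kept: without control replicate 2 the adjusted p was 0.0586 for DCTD, 0.112 for TOP1, 0.235 for POLD4, 0.167 for NME2 and 0.182 for DGUOK. Without control replicate 1 it was 0.074 for TOP1, 0.179 for POLD4, 0.097 for NME2 and 0.0996 for DGUOK. Without p53 siRNA replicate 2 it was 0.217 for POLD4, 0.0566 for NME2 and 0.105 for DGUOK, and without p53 siRNA replicate 1 it was 0.053 for NME2.

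Of the 29 G1/S regulators 2 rose and 1 fell in NCI-H2087. CDKN1A, the CDK inhibitor p21, read 20.2 and 19.8 CPM with control and 78.7 and 101 with p53 siRNA (2.17 ± 0.18, adjusted p = 0.000577). CDKN1C, another CDK inhibitor, rose from 0.88 and 0.98 to 3.29 and 7.56 CPM (2.54 ± 0.51, adjusted p = 0.0162). RB1, the retinoblastoma protein that restrains E2F, fell from 98.8 and 77.8 to 48.1 and 34.1 CPM (-1.10 ± 0.26, adjusted p = 0.0316). CDKN1A was called whichever NCI-H2087 library was left out. CDKN1C and RB1 were not called without control replicate 1 (adjusted p = 0.114 and 0.185), control replicate 2 (0.131 and 0.11) or p53 siRNA replicate 2 (0.0952 and 0.153). With the replicate block 15 of the 29 were called (6 higher, 9 lower), 10 of the 38 nucleotide genes (8 higher, 2 lower) and 5 of the 45 replication genes, all higher, in the fit that called 25.4% of all genes. Other lists moved with p53 siRNA in NCI-H2087. Of the epithelial markers 5 of 8 rose, and the summed level of the 8 went from 4175 and 3843 CPM in the controls to 9252 and 9255. KRT18 made up most of that sum, at 3348 and 3077 CPM, then 7325 and 7238. EPCAM (0.44) and CLDN4 (0.52) were not called, nor was ELF3 (-0.05). All 6 alveolar and lung adenocarcinoma markers had negative log2 changes, and 2 of 6 were called lower. Their summed levels were 375 and 403 CPM in the controls and 269 and 197 with p53 siRNA. NKX2-1 made up most of that sum, at 321 and 338 CPM, then 245 and 180, and was not called. Mitochondrial pseudogenes took 4.85% and 5.51% of the control counts and 2.48% and 2.25% of the p53 siRNA counts. The part of these changes in the results was not tested.

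In NCI-H441 none of the 112 tested pathway genes was called by edgeR, with or without the block. Without it 3 had an unadjusted p below 0.05, as had 4.43% of all genes. Without the block CDKN1A was the 1 pathway gene called for the difference between the lines' responses (1.86 ± 0.25, adjusted p = 0.0258); of the 8 libraries in these 2 lines, leaving out any but NCI-H2087 p53 siRNA replicate 1 ended that call, with adjusted p-values from 0.0626 to 0.176. With the block 12 of the 112 pathway genes were called (10 higher, 2 lower), 8 of them among the 38 nucleotide genes, where 8.92% of all genes were called. DCTD alone was called for the common response (0.83 ± 0.15, adjusted p = 0.0421), and its adjusted p was 0.0574 with the block and up to 0.237 with 1 library left out.

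Levels between lines were compared over all libraries of each line, with siRNA as a term in the model. NCI-H441 had 14 of the 38 genes higher (36.8%) and 5 lower (13.2%) than NCI-H2087, where 26.5% of all genes were higher and 27.2% lower. CDC6 read 117 to 134 CPM in the 4 NCI-H441 libraries and 18.8 to 57.9 in the 4 of NCI-H2087, a log2 difference of 1.84 ± 0.28 (adjusted p = 0.000123). E2F1, the transcription factor, read 28.9 to 44.2 against 4.9 to 13.9 CPM (1.70 ± 0.28, adjusted p = 0.000222). TK1 read 160 to 214 against 41.0 to 107 (1.37 ± 0.27, adjusted p = 0.00099). In all 3 genes every NCI-H441 library lay above every NCI-H2087 library.

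The 6 MCM genes were all higher in NCI-H441 and 4 of 6 passed the test: MCM7 (1.16 ± 0.17), MCM5 (1.12 ± 0.20), MCM3 (1.02 ± 0.19) and MCM6 (0.89 ± 0.15). GINS1 was higher by 1.06 ± 0.24. None of the 4 clamp and clamp loader genes passed, with a median of -0.15. With the replicate number as a single term shared by all lines, 24 of the 38 genes were called, where 54.7% of all genes were. The added genes were MCM2, MCM4, RRM2 and CCNE2 as higher and PCNA as lower. The term assumes the same shift in every line. Replication-side medians of replicate 2 over replicate 1 were -0.39 and -1.03 in NCI-H2087 and -0.06 and 0.05 in NCI-H441 (control, then p53 siRNA). The 5 lower genes were IMPDH1 (-1.17 ± 0.19), CAD (-0.92 ± 0.19), LIG1, the ligase of the lagging strand (-0.46 ± 0.18), IMPDH2 (-0.42 ± 0.13) and GMPS, which converts XMP to GMP (-0.35 ± 0.13). IMPDH1 read 15.9 to 37.2 CPM in NCI-H441 and 37.4 to 70.9 in NCI-H2087. Those ranges met closely but did not overlap.

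In NCI-H2110 8 genes were higher and 8 lower than in NCI-H2087 (21.1% each), against 29.4% and 30.3% of all genes. CDC6 read 98.5 and 113 CPM in NCI-H2110 and was higher by 1.57 ± 0.32 (adjusted p = 0.000977). CCNE1 read 14.5 and 17.2 against 4.5 to 9.6 (1.32 ± 0.26, adjusted p = 0.000948), and FEN1 read 45.7 and 34.8 against 9.3 to 24.8 (1.11 ± 0.28, adjusted p = 0.00397). GINS1 (0.85 ± 0.29), TYMS (0.76 ± 0.28) and POLE (0.74 ± 0.23) followed. The overlapping gene ENOSF1 was itself higher in NCI-H2110 than in NCI-H2087, by 1.47 ± 0.21, so the TYMS difference is uncertain. IMPDH2 was lower by 1.15 ± 0.16 on the log2 scale, at 122 and 101 CPM against 225 to 283, with DUT, the enzyme that removes dUTP (-1.08 ± 0.30), CAD (-0.99 ± 0.24), CTPS1 (-0.89 ± 0.21), IMPDH1 (-0.88 ± 0.25) and ATIC, which closes the purine ring (-0.81 ± 0.18), also lower.

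Against NCI-H441, NCI-H2110 had 4 genes higher (10.5%) and 13 lower (34.2%), where 29.7% and 29.6% of all genes were. PCNA read 244 and 285 CPM in NCI-H2110 and 103 to 121 in NCI-H441 (1.25 ± 0.28, adjusted p = 0.00202), and GMPS was higher by 1.01 ± 0.15 and POLE by 0.92 ± 0.23. TYMS was higher by 0.79 ± 0.28, under the same overlap with ENOSF1, which was higher by 1.46 ± 0.21. TK1 was the lowest relative to NCI-H441, at 51.6 and 34.5 CPM against 160 to 214 (-2.15 ± 0.37, adjusted p = 0.00028). MCM5 (-1.83 ± 0.26), GINS2 (-1.56 ± 0.40), CTPS1 (-1.39 ± 0.21), MCM7 (-1.36 ± 0.23) and E2F1 (-1.19 ± 0.34) were lower as well. All 6 MCM genes were lower in NCI-H2110 than in NCI-H441, and 5 of 6 passed the test. MCM4 was not called with the shared replicate term, whose shift for NCI-H2110 is taken from NCI-H2087 and NCI-H441.

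**Figure D5:**
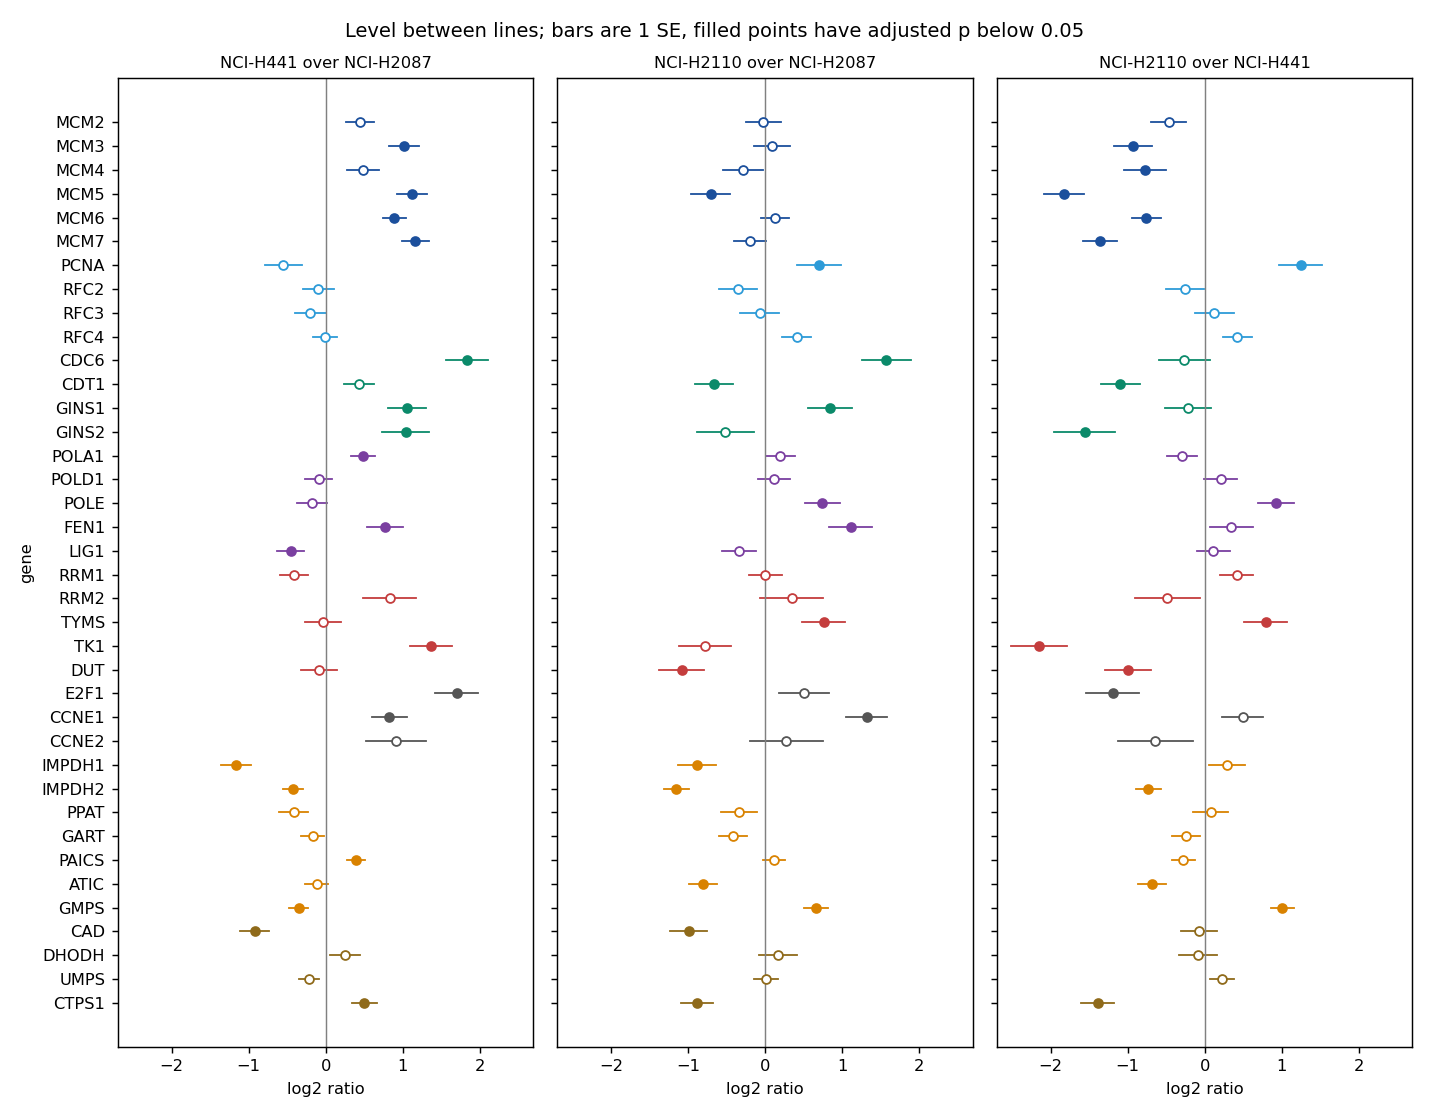
Points are log2 ratios between lines for each of the 38 genes, bars are 1 standard error and filled points have an adjusted p below 0.05. The MCM genes at the top lie to the right in the first panel and to the left in the third, where NCI-H441 is the line with the higher level, while CDC6 is right of 0 in the first 2 panels at 1.84 and 1.57.

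Not all of these line differences survived the loss of a library. Of the calls, 14 of 19 for NCI-H441 over NCI-H2087, 6 of 16 for NCI-H2110 over NCI-H2087 and 8 of 17 for NCI-H2110 over NCI-H441 kept direction and call whichever single library was left out. The matching share over all genes was not counted. Without the NCI-H2110 p53 siRNA library, 6 genes differed between NCI-H2110 and NCI-H2087 and 10 between NCI-H2110 and NCI-H441. Using only the first NCI-H2087 pair, NCI-H441 had 10 genes higher and 8 lower than NCI-H2087, where 45% of all genes were called. In that fit NCI-H2110 had 4 higher and 13 lower than NCI-H2087, where 54.4% of all genes were called. PCNA, TYMS, GINS1 and POLE were no longer called for NCI-H2110 over NCI-H2087. CDC6, E2F1, TK1, CCNE1, GINS1, MCM3, MCM5, MCM6, MCM7, IMPDH1 and CAD kept their call for NCI-H441 over NCI-H2087 under every setting tried.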

How the data were processed

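The deposited table holds whole-number read counts per Ensembl gene in 10 libraries, made by the authors with RSEM 1.2.12 and Bowtie2 on hg19, per the submitters' processing notes; the strand setting and the annotation release are not given in the sources used here. The labels' protocols name a Lexogen mRNA kit. Gene IDs were named from a symbol table (51959 of 57736) and GENCODE 29 (342). Counts were tested with edgeR 4.0.16 in R 4.3.3 (TMM scaling, low counts filtered by filterByExpr, quasi-likelihood test, Benjamini-Hochberg adjustment over 17978 genes): a group-means model for the responses of NCI-H2087, NCI-H441 and their difference, and a model of line plus siRNA for the common response and the line differences. The filter kept 99.96% of counts. Errors are standard errors of log2 values, computed back from the quasi-likelihood test, which borrows spread across genes. The replicate block was within line for the responses and the common response. For the line differences it was a single term shared by all lines. NCI-H2110 was read as a log2 ratio with a prior count of 2, over genes with at least 50 counts in either library. The replicate number paired the libraries: same-numbered libraries deviated together in both lines with 2 pairs (r = 0.53 and 0.60 over 9332 genes, a single correlation per line; the labels give only the numbers), and blocked values stand beside the counts they move by over 1.5 times and the named calls they change. Alternatives were DESeq2 1.42.0, limma-voom 3.58.1, other scaling, no filter, each line alone and each library left out; use of the first NCI-H2087 pair only was chosen after seeing the data. The script was tested on simulated data. The genes named are, per role, the 2 with the smallest p in NCI-H2087 and the 1 in the common response, the 4 largest NCI-H2110 ratios, up to 6 called genes per direction between lines, and up to 4 called genes per pathway list and comparison with the smallest p. Members and lists were chosen with earlier results of these data known. Promoter windows come from RefSeq. The level of the siRNA's own target is not reported here.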

Additional observations from a re-analysis of the deposited data

How the results depend on the processing

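The count of called genes among the 38 in the NCI-H2087 response was 0 as reported, 5 without the filter on low counts, 3 with DESeq2, 8 with the replicate block and 1 when NCI-H2087 was fitted alone; over the libraries left out in turn it ran from 0 to 3. The NCI-H441 response and the response difference each went from 0 to 1 with the replicate block, and the common response from 0 to 2 without the filter and to 1 with DESeq2. The block changed no call in the common response, where it stayed at 0. For NCI-H2110 over NCI-H2087 the control siRNA libraries alone gave 6 calls and left-out libraries 6 to 17, against 16 as reported; for NCI-H2110 over NCI-H441 they gave 9, and 10 to 19, against 17. With the replicate number as a single term shared by all lines, these 2 comparisons had 17 and 18 calls, and NCI-H441 over NCI-H2087 had 24 against 19. The shares of all genes called were 58.6%, 57.7% and 54.7%, in that order. MCM5 and CDT1 lost their call in the first and MCM4 in the second. NCI-H2110 has only replicate 2, so its shift was taken from NCI-H2087 and NCI-H441. Over all genes, the calls in NCI-H2087 were 1560 as reported, 2700 without the filter, 4571 with the block and 0 with the first pair only; in NCI-H441 1, 69 without the filter, 25 with DESeq2, 75 with the block and 0 with the line alone; for the difference 74, 810, 468 and 1604, with 31 under limma-voom and 0 with the first pair; for the common response 71, 1123 without the filter, 592 with DESeq2 and 3 with the first pair. With 1 library left out the calls over all genes ran from 177 to 1103 in NCI-H2087, 0 to 2 in NCI-H441, 0 to 92 for the difference (0 without any one of the 4 controls) and 2 to 117 for the common response. A minimum of 10 counts gave 655 genes past 2-fold in NCI-H2110 against 185. The cause of these shifts was not tested. No value of a named gene changed sign where it was called. The number of libraries, 2 a group and 1 in NCI-H2110, limits the precision, and CCNE1 and DHODH had the lowest levels.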
